A study of Saccharomyces cerevisiae with 27 samples.

Results

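The 37 genes described here are the aminoacyl-tRNA synthetase genes of budding yeast, taken by their systematic gene IDs from the 7122 IDs of the gene table. They comprise 23 genes counted here as cytosolic, namely 22 synthetase genes, among them ALA1 (YOR335C) and the GlyRS paralog GRS2 (YPR081C), and the tRNA-binding cofactor gene ARC1 (YGL105W), and the 14 nuclear genes of mitochondrial synthetases. The mRNA was measured in 3 strains that differ in AlaRS, the alanyl-tRNA synthetase encoded by ALA1: the wild type (WT), C719A, whose enzyme cannot edit mischarged tRNA, and G906D, whose enzyme is impaired in charging. All were of the haploid BY4741 background, grown to log phase at 30 °C in the rich glucose medium YPD, and collected before heat (0 h) or after 1 or 2 h at 37 °C. Each of the 9 groups held 3 libraries, the biological replicates A, B and C. The comparisons ask how a loss of editing or an impaired charging alters gene expression before and under heat. The chromosomal ALA1 is described as deleted in every strain, and the WT, C719A or G906D allele was carried on a single-copy LEU2 plasmid, although the WT is also listed as BY4741 itself. Each allele was represented by 1 strain, and how many clones were sequenced is not given in the sources used here.

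Aminoacyl-tRNA synthetases (aaRSs) attach each amino acid to its tRNAs and so supply the ribosome with its substrates. Several of them also hold an editing site that hydrolyses a wrong amino acid from the tRNA, and in AlaRS this site removes serine. Mitochondria translate their own mRNAs, mostly with separate synthetases encoded in the nucleus, but a few genes, ALA1 among them, supply the enzyme to both compartments. Uncharged tRNA is sensed by the kinase Gcn2, which raises translation of the transcription factor Gcn4, an activator of genes of amino acid synthesis and of some synthetase genes.

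The 27 libraries held 14471528 to 23057641 counts, with a median of 17523615, and the 37 genes had 181 to 88037 counts in a library, so that all 37 were among the 6386 genes tested. Levels are given as CPM, the counts scaled by TMM-normalised library size. Replicates of a group differed by 7.06 to 121 times the sampling variance over 27 pairs, so no pair of them agreed within sampling noise. No run of 50 bases in any of the 37 coding sequences recurred in the R64 genome. The genes of chromosome VII stood higher as a whole in G906D than in the WT, with median log2 fold changes of 0.91, 0.96 and 0.94 at 0, 1 and 2 h over 528 tested genes, against -0.09, -0.04 and -0.07 on the other chromosomes. GUS1, MES1 (YGR264C), TYS1 (YGR185C), VAS1 (YGR094W), ARC1 and MSM1 (YGR171C) lie on that chromosome. All libraries carried transcripts of the MATα genes MF(ALPHA)1, at 160 to 3542 CPM, and STE3, at 88.0 to 508 CPM, more than those of the MATa genes MFA1, MFA2, STE2, BAR1 and AGA2, at 0.61 to 80.5 CPM, whereas BY4741 is a MATa strain. The sum of the 5 MATa genes was 31.7 to 39.5 CPM in the 9 WT libraries, 53.7 to 224 in C719A and 44.7 to 174 in G906D, and 4, 5 and 5 of them were higher in C719A and 3, 3 and 5 in G906D than in the WT at 0, 1 and 2 h. HMLALPHA1 and MATALPHA1 were listed at 0. The part of these differences in the results below was not tested. The cultures were sequenced in bulk, so a change in every cell and a change in a share of the cells cannot be told apart.

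The exchanged residues lie towards the 3′ end of the ALA1 coding sequence, which runs from 949109 to 946233 on the minus strand of chromosome XV (R64). The windows below are shown to locate the exchanges in the gene whose mRNA is measured. They are the reference sequence, 5′ to 3′ on the coding strand, with the changed codon in capitals (Cys in C719A, window chrXV:946923-946985, and Gly in G906D, window chrXV:946362-946424).
ALA1 around the C719A codon: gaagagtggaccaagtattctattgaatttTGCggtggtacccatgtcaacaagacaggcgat
ALA1 around the G906D codon: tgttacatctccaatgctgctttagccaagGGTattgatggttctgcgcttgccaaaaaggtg
The gene counts do not tell these alleles apart.

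The Gcn4 core motif TGACTC was searched on both strands from 250 bases before to 50 bases after the start codon. It occurred in 10 of the 37 genes, all 10 cytosolic, and in 479 of 6007 promoters of the genome (7.97%). A heat shock element with 3 units, searched the same way on both strands, occurred in MSF1 (YPR047W) alone among the 37, and in 47 of 6007 promoters (0.782%). The 10 matches are shown, with R64 coordinates, because the genes that hold them are followed as a group below. Capitals mark the motif, GAGTCA being TGACTC on the opposite strand, and each run is written 5′ to 3′ on the strand of its gene. The position of its first base is counted from the A of the start codon as 1.
ALA1, position -47, chrXV:949139-949168, minus strand: gattaaggaactTGACTCtttctttcaaga
YDR341C, position -200, chrIV:1153809-1153838, minus strand: aaagtgtctaatGAGTCAgttatttctttc
CRS1, position -86, chrXIV:182777-182806, plus strand: tttcatcgcgaaGAGTCAaaagacattatc
GLN4, position 20, chrXV:649310-649339, plus strand: ctgtagaagaatTGACTCagctgttttcac
ILS1, position -102, chrII:84346-84375, minus strand: tcgaaacaatgaTGACTCttaagcatgaaa
KRS1, position -134, chrIV:525294-525323, plus strand: tgaatgatgaaaTGACTCttaatgaacttc
YHR020W, position -182, chrVIII:143802-143831, plus strand: taagcgatgcttGAGTCActgaatgtcttg
THS1, position -204, chrIX:212283-212312, plus strand: ttactgtttaaaTGACTCttaccttgtgat
VAS1, position -98, chrVII:672076-672105, plus strand: atttttttagaaGAGTCAcccatacagcct
ARC1, position -6, chrVII:307419-307448, plus strand: atagagtttcaaGAGTCAatgtccgatctc
The match of GLN4 (YOR168W) lies inside its coding sequence and that of ARC1 just before the start codon. DED81 and YHR020W, the AsnRS and ProRS genes, are divergent neighbours that share the 437 bases between their start codons (VIII 143559 to 143995). The 1 match there, at 143814 to 143819, lies 256 to 261 bases from the start codon of DED81 (YHR019C), just outside its window.

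Per length, the mean level of every cytosolic gene but GRS2 stood above that of every mitochondrial gene in the unheated WT. ALA1 was the most abundant, at 904 ± 66.6 FPKM (fragments per kilobase of gene and library size, SD, n = 3), and its libraries did not overlap those of the next gene. The AspRS gene DPS1 (YLL018C) had 437 ± 92.9 FPKM, and neither it nor GUS1 (YGL245W, GluRS), KRS1 (YDR037W, LysRS), DED81 or THS1 (YIL078W, ThrRS) could be ranked against its neighbour beyond the spread of the 3 libraries. ARC1, at 350.5 ± 6.97 FPKM, ended this group, and no gene from SES1 (YDR023W, SerRS, 284 ± 31.6) to GLN4 (GlnRS, 81.0 ± 11.0) stood clear of the next in order. MSK1, the mitochondrial LysRS gene, was the highest of the 14 mitochondrial genes with 70.9 ± 14.3 FPKM, and its libraries overlapped those of GLN4 but none of the mitochondrial genes below. AIM10, annotated as similar to synthetases and listed here as mitochondrial ProRS, and ISM1 (YPL040C), the mitochondrial IleRS gene, were the lowest with 18.5 ± 3.76 and 18.2 ± 2.36. GRS2, whose annotation describes it as induced by heat and other stress, lay among the mitochondrial genes with 28.2 ± 3.08 FPKM.

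**Figure D1:**
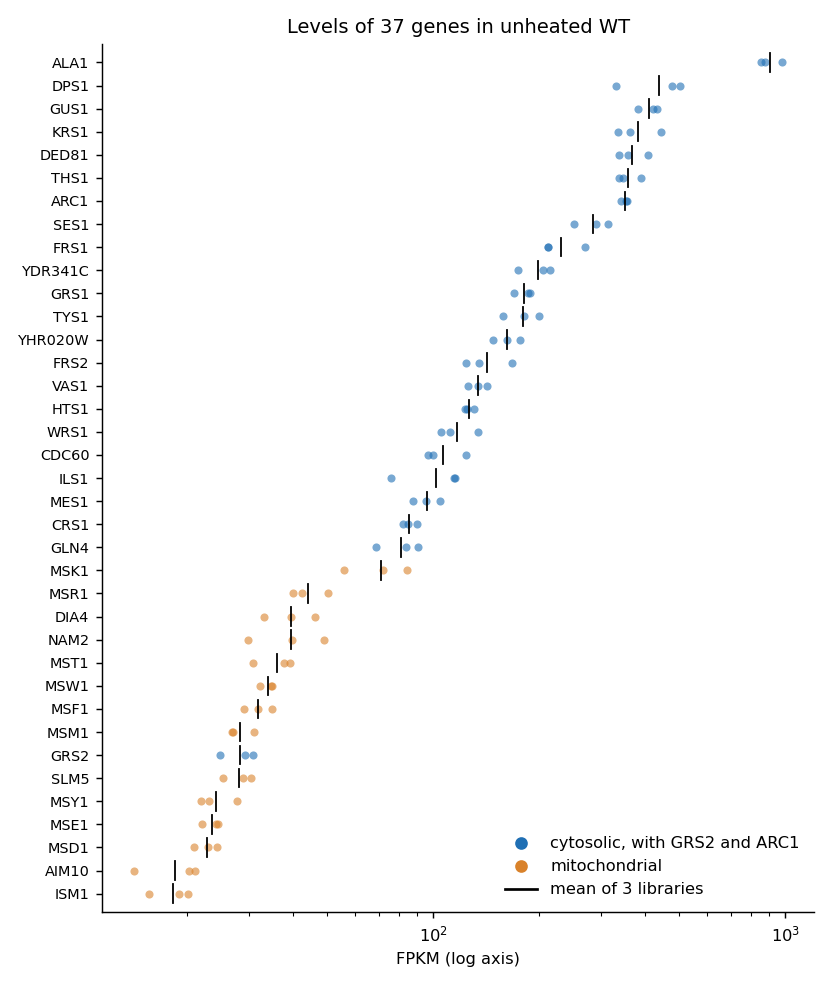
FPKM of the 37 genes in the 3 unheated WT libraries, on a log axis, each point a library and each bar the mean. ALA1 stands alone at the top with 904 FPKM, the other cytosolic genes except GRS2 lie between 81.0 and 437 FPKM, and all 14 mitochondrial genes lie at 70.9 FPKM or below.

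ALA1 mRNA was higher in C719A than in the WT at every time, and did not pass the test in G906D. At 0 h the WT libraries held 2703, 3147 and 2581 CPM, the C719A libraries 5807, 4819.8 and 5624 CPM and the G906D libraries 2715, 2776 and 2549 CPM. After 1 h at 37 °C the values were 1473, 1832 and 1121 CPM in the WT, 3704, 3700.3 and 3820.4 in C719A and 1655, 1737 and 1639 in G906D. After 2 h they were 1474, 1872 and 1276 CPM in the WT, 4360.1, 3844 and 4213 in C719A and 1679.5, 1864 and 1813 in G906D. Every C719A library lay above every WT and G906D library of its time, whereas the G906D and WT libraries overlapped. The log2 fold changes of C719A against the WT were 0.95 (SE 0.157), 1.34 (SE 0.158) and 1.43 (SE 0.159), with adjusted p-values of 2.41e-05, 3.94e-07 and 6.11e-08 (quasi-likelihood test of edgeR, p adjusted by Benjamini-Hochberg over all tested genes and used for all calls below at 0.05). Those of G906D were -0.07, 0.18 and 0.21, with adjusted p-values of 0.716, 0.388 and 0.234. With library size as the only scaling, which moved the median of all genes in G906D at 0 h from -0.03 to -0.37, ALA1 stood at -0.40 and passed. Without WT replicate B at 2 h its log2 fold change in G906D was 0.38 and passed at an adjusted p of 0.0498.

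LEU2, the marker of the plasmid that carries the ALA1 alleles and a gene of leucine synthesis, was measured beside ALA1. It stood at 770.2, 729 and 598 CPM in the unheated WT, 3573, 2518 and 4248 CPM in C719A and 1031, 949 and 945 CPM in G906D. Its log2 fold changes against the WT were 2.30, 1.63 and 2.13 in C719A and 0.48, 0.70 and 1.10 in G906D, all 6 past the test. The dose of the plasmid was not measured, and its part in the level of ALA1 was not tested. ALA1 took 21.9 ± 2.64% of the summed CPM of the 37 genes in the unheated WT, 32.2 ± 0.775% in C719A and 13.8 ± 0.333% in G906D (SD, n = 3).

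**Figure D2:**
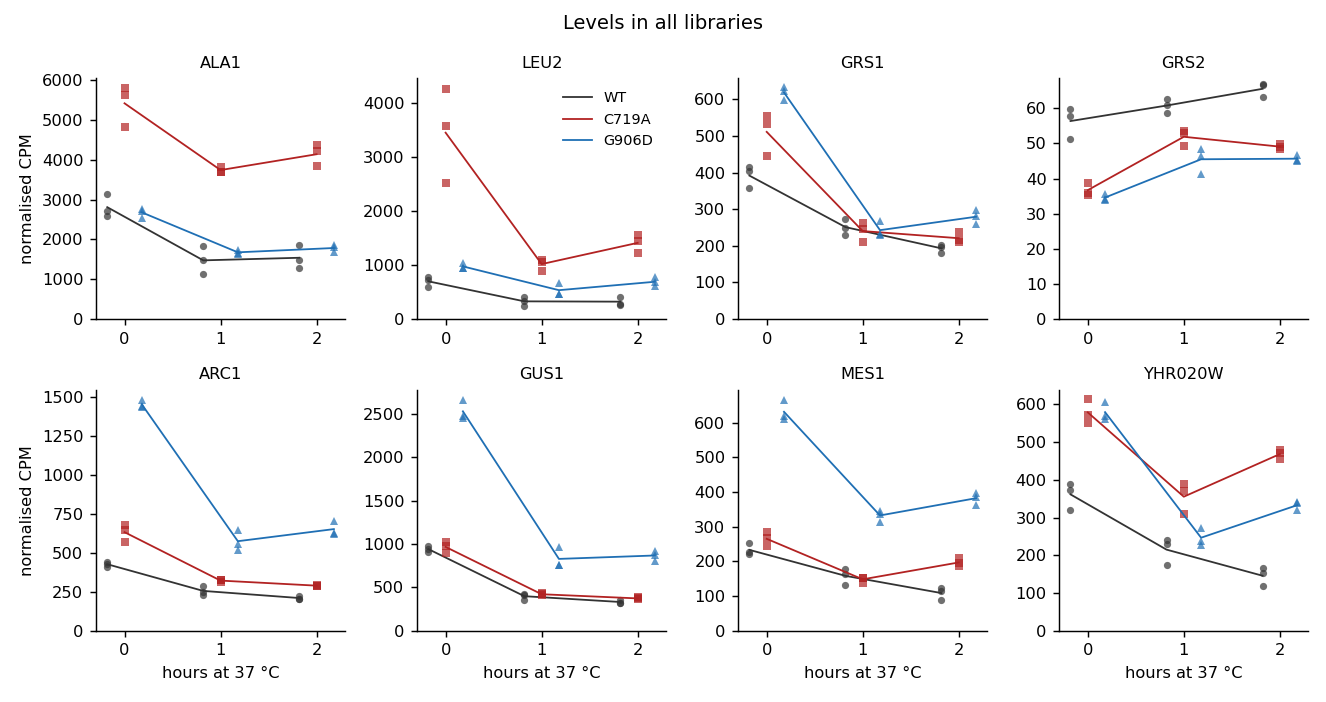
Normalised CPM in all 27 libraries by hours at 37 °C for ALA1, the plasmid marker LEU2, the GlyRS paralogs GRS1 and GRS2, the complex partners ARC1, GUS1 and MES1, and the ProRS gene YHR020W, with points for libraries and lines for the means of 3. ALA1 and LEU2 stand apart in C719A, ARC1, GUS1 and MES1 in G906D, and GRS2 is the 1 gene of the 8 that is highest in the WT at all times.

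Before heat, the mutants had more mRNA of many cytosolic synthetases than the WT and less of most mitochondrial ones. In C719A, 13 of the 37 genes were higher and 16 lower, where 1727 (27%) and 1704 (26.7%) of the 6386 tested genes were. The 13 higher genes were all cytosolic, and 13 of the 14 mitochondrial genes were among the lower, SLM5 (YCR024C, AsnRS) being the exception at 0.04. The median log2 fold change was 0.33 over the cytosolic and -0.50 over the mitochondrial genes, against 0.01 over all genes. The largest changes with no overlap of the libraries were the falls of AIM10 (YER087W) and NAM2 (YLR382C) and the rise of ALA1. AIM10 had 12.5, 13.7 and 12.2 CPM in C719A and 39.0, 27.3 and 36.7 in the WT, which is a log2 fold change of -1.42 (SE 0.134) with an adjusted p of 1.4e-08 (edgeR). NAM2, the mitochondrial LeuRS gene, had 53.6, 42.6 and 44.3 CPM against 114, 89.0 and 138, a change of -1.28 (SE 0.128) with an adjusted p of 3.66e-08 (edgeR). Among the cytosolic genes YHR020W, at 0.68, WRS1 (YOL097C, TrpRS), at 0.59, and ARC1, at 0.57, rose most after ALA1. GRS2, GLN4 and ILS1 (YBL076C, IleRS) went the other way, at -0.62, -0.50 and -0.46.

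In G906D before heat, 19 of the 37 genes were higher and 12 lower, against 30.9% and 33.2% of all genes. The higher genes were 18 cytosolic ones and MSM1, the mitochondrial MetRS gene on chromosome VII. The largest rises were those of ARC1, TYS1 (TyrRS) and MES1 (MetRS), all on chromosome VII. ARC1 had 1442, 1482 and 1438 CPM against 431, 445 and 407 in the WT, which is a log2 fold change of 1.77 (SE 0.101) with an adjusted p of 8.17e-13 (edgeR). TYS1 had 754, 795 and 761 CPM against 254, 240.0 and 196, a change of 1.74 (SE 0.0891) with an adjusted p of 1.39e-13 (edgeR). MES1 had 618, 665 and 611 CPM against 253, 220.4 and 226, a change of 1.44 (SE 0.109) with an adjusted p of 6.9e-11 (edgeR). The libraries did not overlap in any of these. The 5 cytosolic genes of chromosome VII had a median of 1.44, which exceeded the median of that chromosome by 0.53, and the 18 cytosolic genes elsewhere had a median of 0.51, which exceeded that of the other chromosomes by 0.60. Of those 18 genes, 13 were higher and 2, GRS2 and GLN4, lower. With library size as the only scaling 11 of the 37 genes were higher and 17 lower, the cytosolic median being 0.21 and the mitochondrial -0.69 beside -0.37 over all genes.

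After 1 h at 37 °C the cytosolic genes lay closer to the WT in both mutants, with medians of 0.14 in C719A and 0.05 in G906D, while the mitochondrial ones stayed lower in C719A. In C719A 10 genes were higher and 16 lower, against 17.3% and 18.4% of all genes, and the lower ones included all 14 mitochondrial genes with a median of -0.82. MSY1, the mitochondrial TyrRS gene, had 23.9, 29.3 and 25.9 CPM against 59.3, 62.1 and 72.8 in the WT, which is a log2 fold change of -1.29 (SE 0.0962) with an adjusted p of 2.38e-10 (edgeR). MSE1, the mitochondrial GluRS gene, had 24.4, 25.6 and 22.8 CPM against 50.6, 46.5 and 56.0, a change of -1.07 (SE 0.0806) with an adjusted p of 2.76e-10 (edgeR). In G906D 6 genes were higher, close to the share of 16.3% over all genes, and 8 lower, against 15.0%. The 6 higher genes were the 6 on chromosome VII: ARC1, MES1, TYS1, GUS1, VAS1 (ValRS) and MSM1, with log2 fold changes from 0.74 to 1.17, beside the median of 0.96 of that chromosome. The values of ARC1 were 649.8, 557 and 519 CPM in G906D and 250.2, 289 and 229 in the WT, those of MES1 345, 315 and 337 and 177, 165 and 133, and those of TYS1 367, 331 and 319.7 and 162, 174 and 149. Their adjusted p-values were 6.94e-10, 1.29e-08 and 3.59e-10 (edgeR). None of the 18 cytosolic genes elsewhere was higher, and GRS2 was lower. Fitted without chromosome VII, 0 of 31 genes were higher and 6 lower, and with library size as the only scaling 6 of 37 were higher and 17 lower.

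After 2 h at 37 °C most cytosolic genes were higher and most mitochondrial ones lower in both mutants than in the WT. In C719A 18 genes were higher, all of them cytosolic, and 15 lower, namely the 14 mitochondrial genes and GRS2, against 27.5% and 28.9% of all genes. GRS1, GLN4, GUS1 and FRS2 (YFL022C) passed in neither direction, GRS1 doing so with DESeq2 at 0.23 and in a fit of those groups alone at 0.22. The medians were 0.80 over the cytosolic and -0.93 over the mitochondrial genes, against -0.03 over all genes. YHR020W had 472, 454 and 479 CPM in C719A and 119, 166 and 152 in the WT, which is a log2 fold change of 1.68 (SE 0.124) with an adjusted p of 5.37e-11 (edgeR). KRS1 had 777, 730.4 and 762 CPM against 196, 283 and 289, a change of 1.56 (SE 0.156) with an adjusted p of 1e-08 (edgeR). MSY1 had 28.5, 27.5 and 26.03 CPM against 82.4, 72.3 and 77.7, a change of -1.50 (SE 0.0966) with an adjusted p of 5.66e-12 (edgeR). YDR341C (ArgRS), DED81, WRS1 and CDC60 (YPL160W, LeuRS) were also higher, at 1.49, 1.44, 1.13 and 1.07, and MSK1 (YNL073W) and MSE1 (YOL033W) lower, at -1.33 and -1.21.

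In G906D after 2 h, 21 genes were higher and 14 lower, against 31.9% and 33.2% of all genes. The higher ones were 20 cytosolic genes and MSM1, the lower ones 13 mitochondrial genes and GRS2, and ALA1 and GLN4 passed in neither direction. MES1 had 363, 396 and 386 CPM against 87.9, 123 and 115 in the WT, which is a log2 fold change of 1.81 (SE 0.11) with an adjusted p of 1.21e-12 (edgeR). TYS1 had 374, 361 and 401 CPM against 110.4, 124 and 115, a change of 1.70 (SE 0.0893) with an adjusted p of 1.92e-13 (edgeR). ARC1 had 627, 624 and 708 CPM against 203, 222 and 206, a change of 1.63 (SE 0.101) with an adjusted p of 1.56e-12 (edgeR). Off chromosome VII the largest rises were those of KRS1, YHR020W and WRS1, at 1.46, 1.19 and 1.15, and 15 of the 18 cytosolic genes there were higher. The lowest mitochondrial genes were AIM10 and MSY1 (YPL097W), at -0.92 and -0.90. The comparisons of C719A and of G906D used the same WT libraries.

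**Figure D3:**
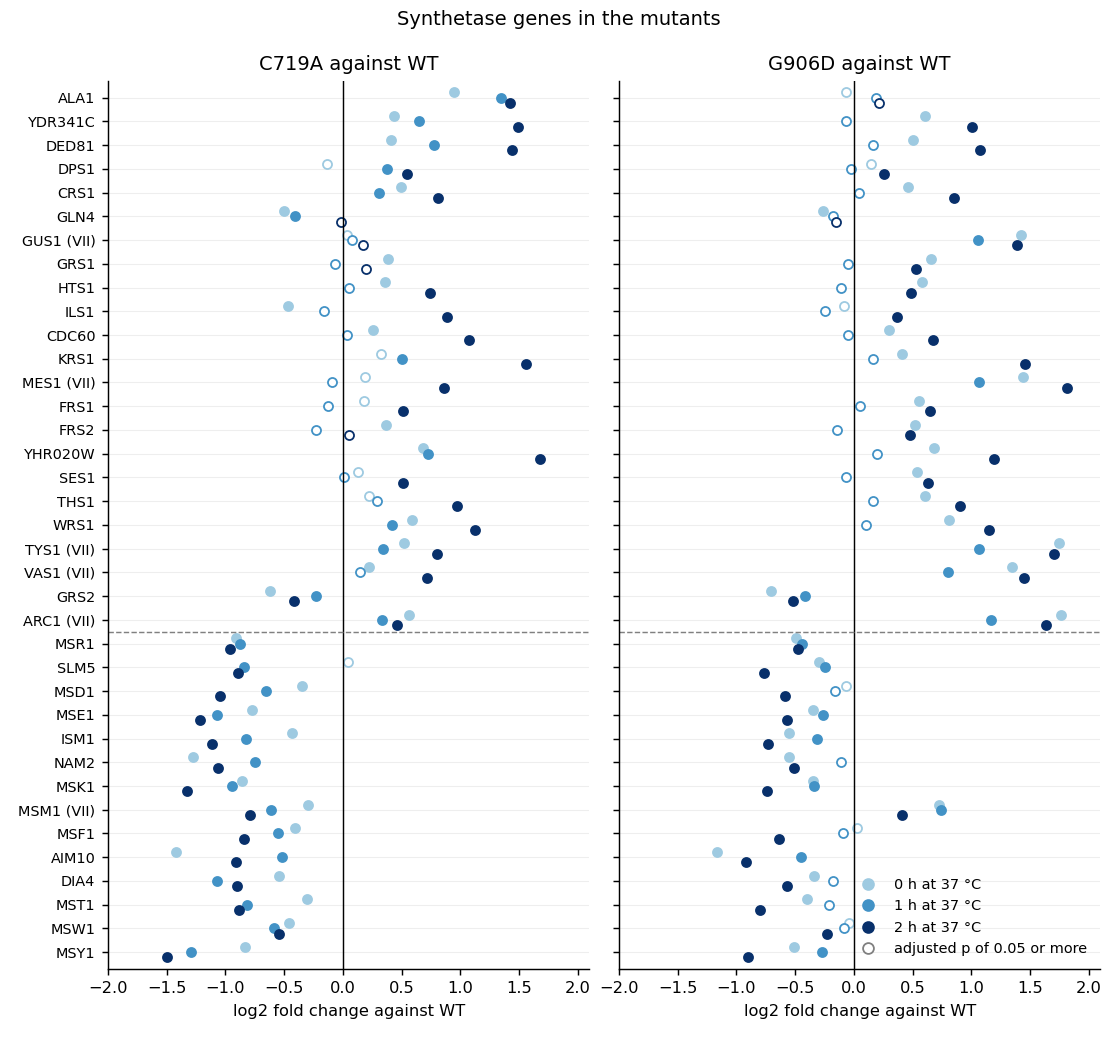
Log2 fold change of each of the 37 genes against the WT in C719A (left) and G906D (right) at 0, 1 and 2 h at 37 °C, with filled points for an adjusted p under 0.05 and genes of chromosome VII marked VII, cytosolic genes above the dashed line and mitochondrial ones below it. After 2 h 18 and 20 cytosolic genes lie filled to the right of 0, and 14 and 13 mitochondrial genes filled to the left.

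Compared directly, C719A had less mitochondrial synthetase mRNA than G906D under heat, and more mRNA of some cytosolic genes and less of others. At 0 h 2 genes were higher in C719A and 22 lower, against 21.6% and 20.2% of all genes. The higher genes were ALA1, at 1.02, and SLM5, at 0.34, and the lower ones included all 6 of chromosome VII. This split depended on the scaling, since with library size alone 8 were higher and 7 lower, while the median of all genes moved from 0.01 to 0.30. After 1 h 8 were higher and 19 lower, against 17.9% and 19.4% of all genes, with 13 of the 14 mitochondrial genes among the lower at a median of -0.60. After 2 h 8 were higher and 17 lower, against 18.6% and 20.9%, with 10 mitochondrial genes among the lower at a median of -0.42. The other lower genes were 6 cytosolic ones at 1 h, 1 of them off chromosome VII, and 7 at 2 h, 2 of them off it. The 5 cytosolic genes of that chromosome had medians of -0.84 at 1 h and -0.96 at 2 h. The 8 higher genes at 2 h were cytosolic and lay off chromosome VII, and ILS1, YDR341C and YHR020W had the largest differences after ALA1, at 0.52, 0.49 and 0.49. With library size alone 10 were higher and 13 lower. AIM10, MST1 (YKL194C, mitochondrial ThrRS), SLM5 and MSF1 (mitochondrial PheRS) did not pass at 2 h, at 0.01, -0.08, -0.13 and -0.20.

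Heat lowered most cytosolic synthetase mRNAs of the WT and raised most of the mitochondrial ones. After 1 h 10 of the 37 genes were higher and 23 lower than at 0 h, against 30.8% and 30.2% of all genes. The 10 higher genes were all mitochondrial, and 21 cytosolic genes were lower, with GLN4 at -0.07 and GRS2 at 0.11 not past the test. After 2 h 12 were higher and 24 lower, against 35.7% and 33.9%. The higher ones were 11 mitochondrial genes and GRS2, at 0.22, the lower ones included the other 22 cytosolic genes, and the medians were -1.10 over the cytosolic and 0.59 over the mitochondrial genes. THS1 had 919.6, 832 and 804 CPM at 0 h, 382, 362 and 273 at 1 h and 199.8, 254 and 241 at 2 h, with log2 fold changes of -1.33 (SE 0.126) and -1.88 (SE 0.128) and adjusted p-values of 6.12e-09 and 1.26e-11 (edgeR). WRS1 had 187, 162 and 143 CPM at 0 h, 76.0, 86.1 and 63.7 at 1 h and 44.7, 53.7 and 47.9 at 2 h, and fell by 1.12 and 1.75 on the log2 scale. No 1 h or 2 h library of either gene reached the 0 h libraries. GUS1 fell by 1.24 at 1 h and YDR341C by 1.67 at 2 h. SLM5 had 40.0, 50.2 and 44.6 CPM at 0 h and 101, 94.8 and 99.7 at 2 h, and rose by 1.13, the largest rise among the 37. MSY1, MSD1 (YPL104W, AspRS) and ISM1 followed at 1.00, 0.89 and 0.85. Against the other mitochondrial genes NAM2 and MSR1 (YHR091C, ArgRS) fell, by 0.41 and 0.24, and MSW1 (YDR268W, TrpRS) stood at 0.07. With library size as the only scaling 12 mitochondrial genes were higher at 2 h and 0 lower, so neither fall passed. The medians were then -0.82 over the cytosolic and 0.87 over the mitochondrial genes. Between 1 and 2 h 22 genes differed, 4 mitochondrial ones higher and 18 cytosolic ones lower, against 24.0% of all genes in either direction, but only 12, 12 and 11 did without replicate A or B at 1 h or replicate A at 2 h.

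In C719A most cytosolic genes fell in heat as well, while most mitochondrial genes did not pass the test. After 1 h 5 genes were higher and 21 lower, against 33.9% and 32.0% of all genes, and after 2 h 5 were higher and 19 lower, against 34.8% and 32.3%. At 1 h FRS2 (the α subunit of PheRS), WRS1 and THS1 fell most, by 1.31, 1.30 and 1.26. At 2 h these were GUS1, FRS2 and GRS1 (YBR121C), which fell by 1.37, 1.35 and 1.21. Their adjusted p-values were at most 1.06e-08 at 1 h and 4.9e-10 at 2 h (edgeR). The 5 higher genes at 2 h were AIM10, MSY1, GRS2, ILS1 and GLN4, at 1.14, 0.33, 0.42, 0.34 and 0.22. The mitochondrial median was 0.13 at 2 h, with 2 of 14 higher. With library size as the only scaling it was 0.46, with 11 of 14 higher, while the median of all genes moved from 0.03 to 0.36, and the split over the 37 genes became 13 higher and 17 lower at 1 h and 14 and 12 at 2 h. Between 1 and 2 h 6 cytosolic genes rose, ILS1 leading with 0.67, and none fell, close to the share of 15.2% of all genes in either direction. Without replicate B at 1 h 2 of them passed, and without replicate C at 2 h 3 did.

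In G906D most cytosolic genes fell with heat and most mitochondrial ones rose, with larger median changes at 1 h than at 2 h. After 1 h 10 genes were higher and 21 lower, against 37.6% and 33.8% of all genes, and after 2 h 9 were higher and 22 lower, against 35.0% and 32.0%. WRS1, YDR341C and THS1 fell most at 1 h, by 1.83, 1.78 and 1.77, with adjusted p-values of at most 1.97e-11 (edgeR). At 2 h THS1, GUS1 and WRS1 did, by 1.58, 1.54 and 1.40, with adjusted p-values of at most 7.59e-10 (edgeR). The cytosolic median was -1.23 at 1 h and -0.88 at 2 h, and the mitochondrial one 0.59 and 0.31. With library size as the only scaling the mitochondrial medians were 1.08 and 0.79, with medians over all genes of 0.53 and 0.52, and 15 genes were higher and 20 lower at 1 h, 15 and 18 at 2 h. Between 1 and 2 h 9 cytosolic genes rose and 7 mitochondrial ones fell, against 16.1% of all genes in either direction. KRS1 and YDR341C rose by 0.57 and 0.51, and MST1 and DIA4 (YHR011W, mitochondrial SerRS) fell by 0.54 and 0.47. This count of 16 was 6, 10 and 6 without replicate B or C at 1 h or replicate C at 2 h.

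**Figure D4:**
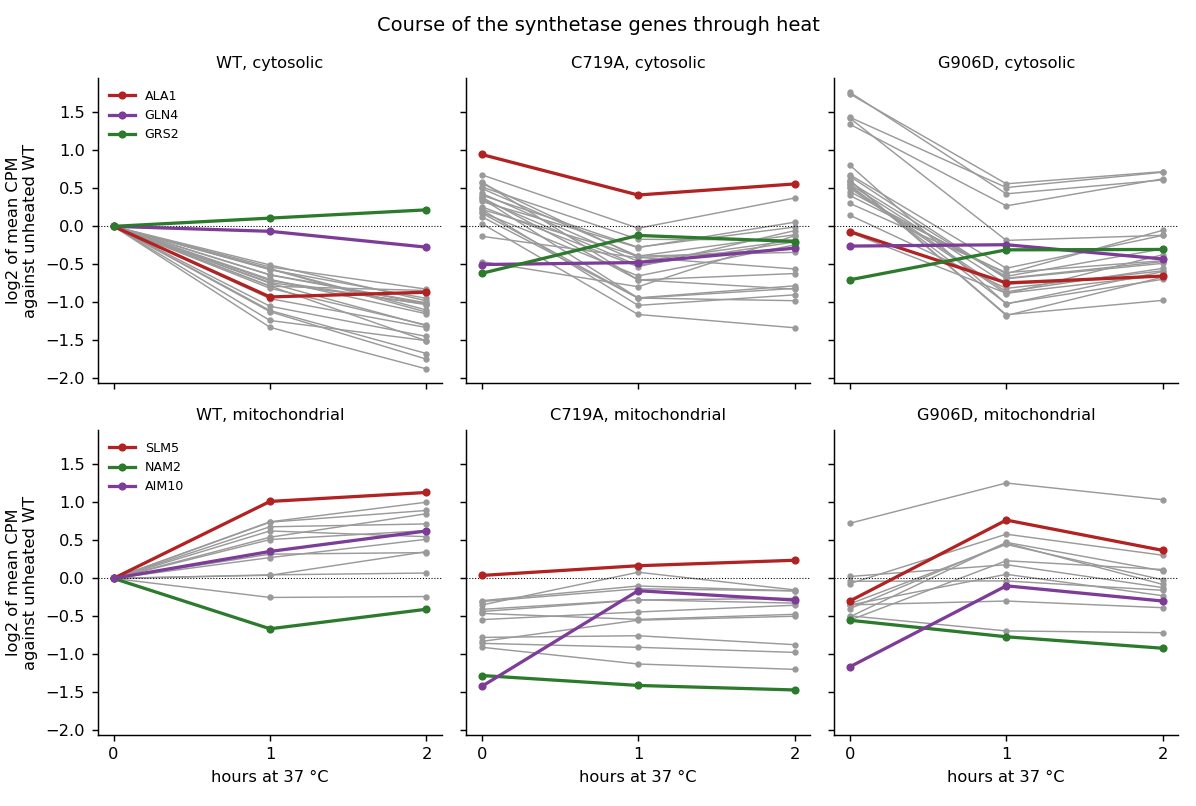
Log2 of the mean CPM of 3 libraries, relative to the unheated WT, against hours at 37 °C for the 23 cytosolic (top) and 14 mitochondrial genes (bottom) in the 3 strains, grey lines for genes and colours for those named. In the WT all cytosolic lines but that of GRS2 lie lower at 2 h than at 0 h, and most mitochondrial lines ascend. In C719A most mitochondrial lines stay near their start, and in G906D most mitochondrial lines turn down after 1 h.

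The difference between a mutant's heat response and that of the WT was tested as a contrast of its own. At 1 h 13 of the 37 genes differed in C719A, close to the share of 31.5% over all genes, 4 higher and 9 lower. The response of AIM10 was 0.91 higher than in the WT (SE 0.182, adjusted p = 0.000737), that of SLM5 0.89 lower (SE 0.127, adjusted p = 3.49e-05) and that of FRS2 0.60 lower (SE 0.144, adjusted p = 0.00323, edgeR). SLM5 had 42.2, 46.8 and 49.5 CPM at 0 h and 54.4, 50.3 and 46.6 at 1 h in C719A, while the WT went from 40.0, 50.2 and 44.6 to 94.2, 87.9 and 90.0. AIM10 went from 12.5, 13.7 and 12.2 CPM to 28.1, 35.3 and 28.7 in C719A, the WT standing at 43.0, 39.8 and 48.9 at 1 h. At 2 h 25 genes differed in C719A, against 36.7% of all genes, with 14 cytosolic genes and AIM10 higher and 10 mitochondrial genes lower. ILS1 had the largest difference, 1.35 (SE 0.175) with an adjusted p of 2.86e-06 (edgeR). It went from 265, 254 and 246 CPM to 331, 320.5 and 317 in C719A and from 394, 272 and 389 to 153, 179 and 192 in the WT. KRS1 and YDR341C followed, at 1.23 (SE 0.216) and 1.06 (SE 0.149) with adjusted p-values of 0.000105 and 7.84e-06 (edgeR). KRS1 went from 978, 815 and 951 to 777, 730.4 and 762 CPM in C719A and from 843, 665 and 678 to 196, 283 and 289 in the WT. YDR341C went from 542, 510.0 and 523 to 349.8, 322 and 356 CPM and from 418, 354 and 392 to 115, 129.6 and 120.0.

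In G906D 14 genes differed from the WT in their 1 h response, against 29.4% of all genes, 12 cytosolic genes having fallen further and AIM10 and GRS2 having risen further. AIM10 differed by 0.71 (SE 0.181), GRS1 by -0.71 (SE 0.142) and WRS1 by -0.70 (SE 0.173), with adjusted p-values of 0.00629, 0.00121 and 0.00515 (edgeR). WRS1 went from 277, 290.0 and 293 CPM to 96.8, 74.9 and 70.8 in G906D, and AIM10 from 16.0, 14.4 and 15.5 to 26.7, 34.1 and 35.5. In a fit of the groups compared alone AIM10 differed by 0.66 and did not pass. At 2 h 10 genes differed, close to the share of 23.3% over all genes, with KRS1, DED81 and YHR020W higher and 7 mitochondrial genes lower. KRS1 differed by 1.05 (SE 0.216), MSF1 by -0.66 (SE 0.127) and DED81 by 0.57 (SE 0.162), with adjusted p-values of 0.00111, 0.000599 and 0.012 (edgeR). KRS1 went from 938, 1056 and 903 to 637, 698 and 773 CPM, MSF1 from 45.2, 51.3 and 51.3 to 43.2, 45.0 and 45.4 and DED81 from 924, 987 and 886 to 488, 518 and 518. In the WT MSF1 went from 43.8, 49.98 and 51.5 to 74.0, 62.9 and 70.7 CPM and DED81 from 726, 625 and 624 to 209, 257 and 258. The count of 10 was 6 without replicate A of the WT at 0 h, replicate A of the WT at 2 h or replicate C of G906D at 0 h. With library size as the only scaling the split was 11 higher and 1 lower, the median of all genes moving from 0.04 to 0.24, with DESeq2 it was 8 and 7, and with RLE size factors 5 and 7. At 1 h it was 7 higher and 9 lower with library size alone.

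**Figure D5:**
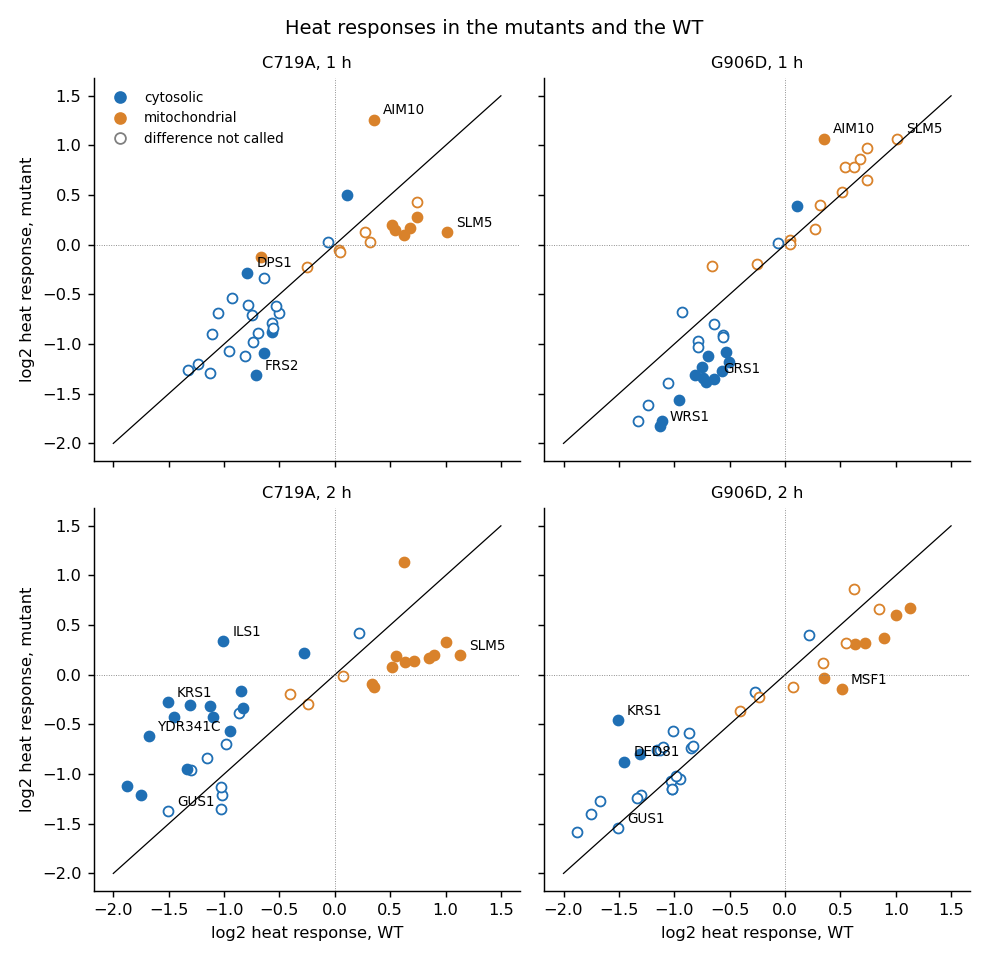
Log2 heat response (1 h or 2 h against 0 h) of the 37 genes in C719A or G906D on the y axis and in the WT on the x axis, blue for cytosolic and orange for mitochondrial genes, filled where the difference passed the test, with equality on the diagonal. At 2 h in C719A 14 cytosolic genes and AIM10 lie filled above the diagonal and 10 mitochondrial genes below it.

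GRS1 (II 481364 to 483367) and GRS2 (XVI 702114 to 703970), both on the minus strand, are paralogous GlyRS genes, and they moved in opposite directions in the mutants before heat and in the WT over 2 h of heat. GRS1, the main GlyRS gene of cytosol and mitochondria, had 403, 415 and 357 CPM at 0 h, between 229.7 and 274 at 1 h and 180.2, 201 and 198 at 2 h in the WT. In C719A the values were 555, 445 and 534 CPM at 0 h, 263, 211 and 247 at 1 h and 237, 211 and 215 at 2 h, and in G906D 623, 634 and 598 CPM at 0 h, 267, 232 and 229.5 at 1 h and 258, 282 and 298 at 2 h. In all strains the heated libraries of GRS1 lay below the unheated ones. GRS2 had 57.9, 51.3 and 59.9 CPM at 0 h, 58.8, 61.0 and 62.6 at 1 h and 66.8, 63.1 and 66.6 at 2 h in the WT. In C719A the values were 35.4, 36.0 and 38.7 CPM at 0 h, 49.2, 53.5 and 52.9 at 1 h and 48.9, 48.4 and 49.97 at 2 h, and in G906D 34.2, 35.7 and 33.9 CPM at 0 h, 41.4, 48.5 and 46.6 at 1 h and 46.7, 45.0 and 45.2 at 2 h. At every time the GRS2 libraries of both mutants lay below those of the WT. Against the WT GRS2 stood at -0.62, -0.23 and -0.42 in C719A and -0.70, -0.42 and -0.52 in G906D, with adjusted p-values from 1.62e-08 to 0.0126 (edgeR). The fall in C719A at 1 h did not pass without its replicate A. GRS1 stood at 0.38, -0.06 and 0.19 in C719A, of which the first passed (adjusted p = 0.00244, edgeR, but 0.0556 in a fit of those groups alone), and at 0.66, -0.05 and 0.53 in G906D, of which the first and the last passed (adjusted p = 5.17e-06 and 5.93e-05, edgeR). In heat GRS2 rose in all 3 strains at 2 h, by 0.22 in the WT, 0.42 in C719A and 0.40 in G906D. Per length GRS1 exceeded GRS2 by 6.49 ± 0.984 times in the unheated WT and 2.74 ± 0.227 times at 2 h (SD, n = 3), by 12.9 ± 1.55 and 4.17 ± 0.272 times in C719A, and by 16.6 ± 0.278 and 5.68 ± 0.507 times in G906D.

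Arc1, GluRS (GUS1) and MetRS (MES1) form a complex in which Arc1 brings the tRNA to both enzymes, and all 3 genes lie on chromosome VII, at 307437 to 308567 (ARC1), 39023 to 41149 (GUS1) and 1019598 to 1021853 (MES1). GUS1 had 982, 905 and 940.0 CPM at 0 h, 418, 424 and 355 at 1 h and 317, 353 and 326 at 2 h in the WT. In C719A the values were 1029, 899.9 and 973 CPM at 0 h, 421, 412 and 432 at 1 h and 385, 362 and 373 at 2 h, and in G906D 2479.8, 2659 and 2454 CPM at 0 h, 968, 762 and 757 at 1 h and 809.8, 878 and 917 at 2 h. In G906D its libraries lay above all others of their time, at 1.43, 1.05 and 1.39 against the WT. In C719A its changes of 0.04, 0.08 and 0.17 did not pass the test (adjusted p = 0.784, 0.581 and 0.171, edgeR). At 2 h it passed with DESeq2, at 0.21, and in a fit of those groups alone, at 0.20. ARC1 passed in C719A at all 3 times, at 0.57, 0.33 and 0.46, with libraries of 682, 568 and 650.0 CPM at 0 h, 326, 314 and 327 at 1 h and 294, 287 and 289 at 2 h beside 203, 222 and 206 in the WT at 2 h. The rise at 1 h did not pass without WT replicate C. MES1 passed in C719A at 2 h alone, at 0.86 with 195, 186 and 209 CPM, after 0.18 (284, 245 and 266 CPM) at 0 h and -0.09 (153, 138 and 153 CPM) at 1 h.

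PheRS is built of α and β subunits from the genes FRS2 (VI 93499 to 95010) and FRS1 (YLR060W, XII 260979 to 262766). FRS1 had 517, 422 and 397 CPM at 0 h, 268, 268 and 223 at 1 h and 161, 194 and 187 at 2 h in the WT. In C719A the values were 529.7, 459 and 519.8 CPM at 0 h, 238, 219 and 237 at 1 h and 274, 251 and 251 at 2 h, and in G906D 645, 671 and 645 CPM at 0 h, 281, 250.1 and 257 at 1 h and 263, 295 and 290.4 at 2 h. FRS2 had 270.4, 228 and 197 CPM at 0 h, 145, 148 and 131 at 1 h and 105, 119.6 and 115 at 2 h in the WT. In C719A the values were 317, 259 and 322 CPM at 0 h, 129.6, 112 and 119.9 at 1 h and 122, 116 and 114 at 2 h, and in G906D 334, 342 and 323 CPM at 0 h, 144, 122 and 117 at 1 h and 152, 159.5 and 163 at 2 h. Both fell with heat in every strain. In C719A FRS2 was higher at 0 h, at 0.37 (adjusted p = 0.00374, edgeR), and FRS1 at 2 h, at 0.52 (adjusted p = 0.000113, edgeR), with the other changes at 0.18 and -0.13 for FRS1 and -0.23 and 0.05 for FRS2. Without WT replicate A the change of FRS1 at 0 h was 0.30 and passed. In G906D both were higher at 0 h, at 0.55 and 0.52, and at 2 h, at 0.64 and 0.48. At 1 h they stood at 0.05 and -0.15, and with library size as the only scaling FRS2 passed there at -0.28, as it did in C719A at 1 h at -0.30. At 0 h the rises in G906D did not pass with that scaling (0.21 for FRS1 and 0.18 for FRS2), nor did that of FRS2 in C719A in a fit of those groups alone (0.36). Per length FRS1 exceeded FRS2 by 1.35 ± 0.0431 times in the WT at 2 h and 1.86 ± 0.032 times in C719A at 2 h (SD, n = 3), the lowest and highest of the 9 groups.

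The mitochondrial genes differed among themselves in when they were low. AIM10 and NAM2 were lowest in C719A before heat, at -1.42 and -1.28, and nearer to the WT at 1 h, at -0.52 and -0.74, than at 2 h, at -0.91 and -1.06. SLM5 overlapped the WT before heat (42.2, 46.8 and 49.5 against 40.0, 50.2 and 44.6 CPM) and lower by 0.85 and 0.89 at 1 and 2 h. MSY1, MSE1 and MSK1 were lower at every time, with values of -0.83, -0.78 and -0.86 at 0 h and -1.50, -1.21 and -1.33 at 2 h. In the main fit MSW1 did not pass the test of heat in any strain, with values from -0.12 to 0.07 at 2 h. Its mean FPKM, which is scaled by library size alone, went from 33.9 at 0 h to 43.4 at 2 h in the WT. It went from 23.8 to 29.5 in C719A and from 26.1 to 33.5 in G906D, so a flat course of MSW1 depends on the scaling. Against the WT MSW1 lay between -0.59 and -0.46 in C719A. MSM1, on chromosome VII, was the 1 mitochondrial gene above the WT in G906D, with 85.1, 82.9 and 93.0 CPM at 0 h, 126, 132 and 119 at 1 h and 111, 105 and 107 at 2 h. The WT had 49.8, 51.8 and 56.2 CPM at 0 h, 70.6, 75.4 and 78.9 at 1 h and 78.8, 83.7 and 81.6 at 2 h. Its changes of 0.73, 0.74 and 0.41 were below the median of that chromosome at each time, and in C719A it was lower, at -0.29, -0.61 and -0.79.

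Summed over the genes, the balance of the compartments shifted with strain and heat. The cytosolic genes without ALA1 totalled 10.7 ± 1.12 times the CPM of the mitochondrial genes in the unheated WT (SD, n = 3), 4.97 ± 0.777 times at 1 h and 3.39 ± 0.375 times at 2 h. In C719A the ratio was 19.9 ± 1.46, 10.4 ± 1.01 and 12.1 ± 0.365, and in G906D 22.6 ± 1.68, 6.95 ± 0.814 and 9.87 ± 0.576. These ratios do not depend on the scaling between libraries, and the G906D values include the 6 genes of chromosome VII. The mitochondrial sum itself was 857 ± 64.5, 1053 ± 60.5 and 1175 ± 45.0 CPM in the WT and 547 ± 8.93, 595 ± 26.6 and 580 ± 19.5 CPM in C719A (SD, n = 3).

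The 5 genes that supply a synthetase to cytosol and mitochondria, ALA1, GRS1, HTS1 (YPR033C, HisRS), VAS1 and CRS1 (YNL247W, CysRS), followed the cytosolic genes. All 5 fell in heat at 1 and 2 h in all 3 strains. Against the WT 5 of 5 were higher in C719A at 0 h, 2 at 1 h and 4 at 2 h, where 27%, 17.3% and 27.5% of all genes were. In G906D 4, 1 and 4 were, against 30.9%, 16.3% and 31.9% of all genes, and none of the 5 was lower in either mutant. Of the 7 genes of synthetases with an editing site (ALA1, ILS1, CDC60, VAS1, THS1, FRS1 and FRS2), 6 were higher in C719A at 2 h with a median of 0.89, and 6 in G906D with a median of 0.64, beside the same shares of all genes at 2 h. ILS1 was the 1 of these 7 that was lower in C719A at 0 h.

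The 10 cytosolic genes with a TGACTC match, shown above, stood at a median of 0.93 in C719A against the WT at 2 h, 9 of them higher, and the 13 without a match at 0.55, 9 of them higher and 1 lower. In G906D at 2 h the medians were 0.95, with 8 of 10 higher, and 0.64, with 12 of 13 higher and 1 lower. Before heat they were 0.38 and 0.26 in C719A and 0.53 and 0.55 in G906D. In C719A at 2 h the genes with a match ranged from GLN4 at -0.01 to YHR020W at 1.68, and those without from GRS2 at -0.42 to DED81 at 1.44. The match near DED81 lies outside its window. That of ALA1 was read at the chromosomal gene, which is described as deleted. Whether the plasmid carried this match is not given in the sources used here. No test of the difference between these groups was made.

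Genes that work beside the synthetases were read from lists of their own, and at 2 h 27.5% of all genes were higher and 28.9% lower in C719A, and 31.9% and 33.2% in G906D. YNL040W, annotated as a hydrolase of Ser-tRNA(Ala) that edits in trans, was higher in C719A at all 3 times, at 0.70, 0.39 and 0.48, with 57.6, 57.2 and 62.2 CPM against 35.05, 35.3 and 38.4 in the WT at 0 h. In G906D it stood at 0.03, -0.09 and -0.20, the last being a fall past the test. Of the other 3 genes of the list, PTH1, a peptidyl-tRNA hydrolase, was lower in both mutants at 0 h, at -1.12 and -1.03, and at 2 h. PTH2 and DTD1, a D-aminoacyl-tRNA deacylase, were higher in G906D at 0 and 2 h, at 0.48 and 0.48 at 0 h. Of 10 tested cytosolic elongation genes, 8 were higher and 1 lower in each mutant at 2 h, with medians of 0.83 in C719A and 1.05 in G906D, and 9 fell in the WT over 2 h of heat, against 33.9% of all genes. The exception was HEF3, a paralog of the elongation factor gene YEF3. Against the WT at 2 h it stood at -0.77 in C719A and -1.38 in G906D. In the WT it rose from 34.5, 38.5 and 39.9 CPM at 0 h to 207, 139 and 153 CPM at 2 h. Of 10 genes of mitochondrial translation factors and tRNA-modifying enzymes, 9 were lower in C719A at 2 h and 7 in G906D. The medians over the 10 were -0.96 and -0.67, and TUF1, the mitochondrial elongation factor Tu, stood at -1.16 and -0.67. GTF1, a subunit of the mitochondrial glutamyl-tRNA amidotransferase, was higher in both, at 0.43 and 1.37, and MRF1, a mitochondrial release factor, was lower in C719A, at -1.06, and higher in G906D, at 0.48. Both lie on chromosome VII. MEF2, a mitochondrial elongation factor, stood at -0.20 in G906D and did not pass the test. In the WT 9 of these 10 rose over 2 h of heat, against 35.7% of all genes. Of 8 tRNA maturation and export genes 2 were higher and 1 lower in C719A at 2 h, and 3 higher and none lower in G906D. GCN4 mRNA was higher at 0 and 2 h in C719A, at 0.77 and 0.95, and in G906D, at 1.03 and 1.21. The gene of the kinase, GCN2, was lower in G906D at all 3 times, at -0.28 to -0.32, and its partner GCN1, on chromosome VII, higher there, at 1.20, 0.80 and 1.12.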

How the data were processed

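Yeast mRNA enriched with oligo(dT) for 27 libraries was sequenced on an Illumina instrument, and no strand marking is described. The authors deposited a table of gene counts and a table of FPKM for all 27 libraries. The deposited counts are raw reads per gene, and the deposited FPKM values are those counts divided by gene length and library size. TopHat2 and Bowtie2 are named in the submitters' processing notes, while the genome build and annotation are not given in the sources used here. The gene lengths implied by the ratio of counts to FPKM match R64 within 0.1% for all 37 genes, so R64 was used for names, positions and sequences.

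The 37 genes and the other lists were chosen with earlier results of these data known. Counts were fitted with edgeR 4.0.16 in R 4.3.3 (filterByExpr, TMM normalisation, 9 group means, quasi-likelihood tests), which tested 6386 of 7122 IDs in 22 comparisons with Benjamini-Hochberg adjustment over all tested genes in each, at 0.05. TMM factors ranged from 0.719 to 1.15. The procedure was tested on simulated data with known changes. The genes given by library were the 3 with the largest change past the threshold in each comparison (against the WT, among those whose libraries did not overlap), together with ALA1, GRS1, GRS2, ARC1, GUS1, MES1, FRS1 and FRS2. Other members named were chosen after their values were seen. Alternatives used RLE size factors, library size alone, a minimum of 10 counts in every library, no filter beyond 1 count, DESeq2 1.42.0, limma 3.58.1 on log2(FPKM + 1) and log2(FPKM + 0.1), a replicate block, the groups compared alone, a fit without chromosome VII, and each library left out. The sources do not say that a replicate letter marks a shared culture or day. Within strains, deviations of same-lettered libraries had correlations from -0.399 to 0.209, with a median of 0.037 and 10 of 27 above 0.1. Those of libraries with different letters ran from -0.379 to 0.427, with a median of -0.025 and 9 of 54 above 0.1. The letters were not used to pair libraries in the main fit. Counting intervals are not given, because the spread between replicates exceeded counting error.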

Additional observations from a re-analysis of the deposited data

Results flagged for a closer look

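Genes whose heat response differed between a mutant and the WT are given here, since each difference was tested as a contrast of its own over the 4 groups. In C719A at 1 h 13 of the 37 genes differed, which is close to the share of 31.5% over all genes. The named ones were AIM10 (0.91 higher on the log2 scale than in the WT), SLM5 (-0.89) and FRS2 (-0.60). In C719A at 2 h 25 differed, against 36.7% of all genes, led by ILS1 (1.35), KRS1 (1.23) and YDR341C (1.06). In G906D at 1 h 14 differed, against 29.4%, led by AIM10 (0.71), GRS1 (-0.71) and WRS1 (-0.70). In G906D at 2 h 10 differed, which is close to the share of 23.3% over all genes, led by KRS1 (1.05), MSF1 (-0.66) and DED81 (0.57). The groups hold 3 libraries each, too few for a test of single libraries that stand apart.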

How the results depend on the processing

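Of 389 alternative counts of called synthetase genes, 23 moved by more than 1.5 times. G906D against the WT at 1 h (14 genes) rose to 23 with library size alone, 23 and 22 with limma on log2(FPKM + 1) and log2(FPKM + 0.1), and fell to 6 without chromosome VII. C719A against G906D at 0 h (24) fell to 15 with each of the first 3 settings. In fits of the groups compared alone, 2 h against 1 h gave 11 in the WT (22), 10 in C719A (6) and 8 in G906D (16), and the 1 h response differences 6 in C719A (13) and 9 in G906D (14). Leaving out 1 library each gave 11 to 23 for 2 h against 1 h in the WT, 2 to 7 in C719A and 6 to 22 in G906D, and 6 to 13 for the 2 h response difference of G906D (10). Of 1486 alternative values of named genes 1448 kept direction and call, 9 lost it, 15 gained it and 14 changed sign, all 14 uncalled and near 0. In C719A GUS1 at 0 h stood at -0.0152 with library size alone and -0.0135 and -0.0136 with limma. In G906D at 1 h FRS1 stood at -0.0802, -0.0763 and -0.0767 with these settings, and GRS1 at 0.00106 without chromosome VII. Leaving out 1 library each gave -0.00905 to 0.0870 for GUS1 in C719A at 0 h, -0.136 to 0.0212 for GRS1 in C719A at 1 h, -0.126 to 0.0205 for ALA1 in G906D at 0 h, and -0.132 to 0.0159 for GRS1 and -0.0305 to 0.0968 for FRS1 in G906D at 1 h. The causes were not tested.

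With a replicate block over all strains, 29, 26 and 33 genes were called in C719A and 31, 14 and 35 in G906D against the WT at 0, 1 and 2 h, and no count moved by more than 1.5 times. A replicate block within each strain, used for the heat comparisons and the differences of heat responses, also moved no count by more than 1.5 times. Each group held 3 libraries of 1 strain, a plasmid carried the ALA1 alleles, and chromosome VII was high in G906D, so strain and allele cannot be told apart.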
